A study of Mus musculus with 6 samples.

Results

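The 6 genes described here encode small structured RNAs that are not built like messenger RNAs: Rn7sk (7SK RNA), the Y RNA genes Rny1 and Rny3, Rmrp, Rpph1 and Terc. They were taken by gene symbol from the 53801 genes of a count table of embryonic mouse brain. The set was chosen by the measured difference between genotypes in these same counts, since Rn7sk and Rny1 had been seen higher in brains lacking Bahd1. The difference between genotypes is therefore given for the 6 genes as a description, without a test. RNA-seq was performed on the whole brains of 6 C57BL/6 embryos at stage E16.5. Bahd1-KO embryos (n = 3) were Bahd1-/- and Bahd1-WT embryos (n = 3) were Bahd1+/+, and according to the methods of the study both genotypes came from matings of heterozygotes. The deletion is constitutive, so it affects every cell of the embryo. BAHD1 is a chromatin protein that promotes gene repression. The comparison asks whether its loss alters gene expression in the late fetal brain.

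RNA polymerase III makes 7SK, the Y RNAs and the RNA subunits of RNase MRP and RNase P, and ends them at a short run of T without adding a poly(A) tail. 7SK holds the kinase P-TEFb in an inactive particle and so restrains transcription elongation. Y RNAs bind the Ro60 protein and take part in RNA quality control and DNA replication. Rmrp and Rpph1 are the catalytic RNAs of ribonucleases that process ribosomal and transfer RNA precursors. Terc, the template of telomerase, differs from the others in being an RNA polymerase II transcript, although it too lacks a long tail. The libraries were built from polyadenylated RNA, and the labels state that RNA shorter than 200 nucleotides was removed at extraction. The levels below are thus those of transcripts that this preparation was not made to capture.

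The 3 transcripts that were counted in every embryo are shown because their ends and shared bases bear on how they were measured. The sequences are those of the GENCODE M21 transcripts, written 5′ to 3′ as DNA, and capitals mark the final run of T. For Rn7sk the 90 bases at the 3′ end are given, which follow the stretch that an annotated copy carries unchanged. Rn7sk (ENSMUSG00000065037) lies at chr9:78175303-78175633 of GRCm38 on the minus strand, Rny1 (ENSMUSG00000065701) at chr6:47788069-47788180 on the minus strand and Rny3 (ENSMUSG00000064945) at chr6:47781624-47781725 on the plus strand.
Rn7sk, bases 242 to 331: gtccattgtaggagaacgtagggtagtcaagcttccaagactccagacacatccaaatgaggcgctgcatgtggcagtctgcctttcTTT
Rny1: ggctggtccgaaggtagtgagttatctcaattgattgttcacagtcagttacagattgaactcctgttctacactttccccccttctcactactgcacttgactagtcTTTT
Rny3: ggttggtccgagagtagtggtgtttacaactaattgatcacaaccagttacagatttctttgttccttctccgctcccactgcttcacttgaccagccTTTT
Rn7sk spans 331 bases, Rny1 112 bases and Rny3 102 bases, each in a single exon that shares no base with another gene. The Y RNAs are thus below the 200-nucleotide limit of the extraction, while 7SK is above it. The longest run of A within these sequences is 3 bases in Rn7sk and 2 bases in each Y RNA, so none of them holds a long internal A stretch (97.8% of the annotated transcripts have a run of 3 or more). Of 141767 annotated transcripts, 3.06% end in TTT, as these 3 do. Rny1 and Rny3 carry 81 identical bases over 112 aligned positions (72.3%), and their longest common stretch is the 12 bases cagttacagatt, starting at base 46 of Rny1 and base 45 of Rny3.

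The other 3 RNAs were at or near 0. Rmrp (ENSMUSG00000088088, chr4:43492788-43493058) had 0 counts in each embryo. A second gene record on the same strand covers all 271 of its bases, leaving 0 bases of its own, and that record had 0 counts as well. Rpph1 (ENSMUSG00000092837, chr14:50807449-50807767) shares 233 of its 319 bases with Ccnb1ip1 on the same strand and keeps 86 of its own. It had 17 counts in Bahd1-KO replicate 3 and 0 in the other embryos, where up to 3 counts, or 0.0297 to 0.0458 CPM on the scale explained in the next paragraph, are allowed by a count of 0. Reads that overlap 2 genes are left out by the default of the counting program, so that the values of Rmrp and Rpph1 are uncertain, and whether this produced their zeros was not tested. Terc (ENSMUSG00000064796, chr3:96414437-96414859), which overlaps no other gene, had 0, 2 and 0 counts in Bahd1-KO replicates 1 to 3 and 1, 0 and 3 counts in Bahd1-WT replicates 1 to 3. A level of Terc was thus not detectable at this depth, and no fold change is given for it or for Rmrp and Rpph1. A minimum of 10 counts summed over the embryos was passed by 4 of the 6 genes, of which Rpph1 passed through a single knockout embryo.

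Total counts ranged from 61724000 to 91782802 per embryo. Bahd1 itself had 2, 10 and 6 counts in the knockouts against 1971, 3102 and 3470 in the wild types, in accordance with the labels. Bahd1-KO replicate 3 stood apart from the other 5 libraries, those of its own genotype included. It assigned 35268366 of its 78941526 counts to ribosomal RNA genes, against 204029 to 470250 counts in the others. The summed level of 11 brain markers was 2338 in this library and 8609 to 10495 elsewhere. These are counts per 1000000 (CPM) after scaling by trimmed mean of M-values (TMM) factors, the scale of all levels that follow. This library was the lowest for 9 of the 11 markers. The neuronal gene Snap25 was instead highest here, at 910 against 154 to 285 elsewhere, and Slc1a3 was at 0.992 times the Bahd1-WT mean. Lung markers summed to 1083 with all 5 genes highest here, against 11.1 in Bahd1-KO replicate 2 and 0.198 to 0.465 in the remaining libraries, and skeletal muscle markers summed to 78.4 against 2.27 to 11.6, with all 6 genes highest here. Blood markers summed to 409 in this library and to 132 to 589 in the others. Markers of other tissues were not limited to this embryo. Placenta markers summed to 7.51 in Bahd1-KO replicate 2 and to at most 0.104 elsewhere, with Prl2c2, 1 of the 4 genes, at 0 throughout, and liver markers summed to 30.3 in Bahd1-WT replicate 3 and to 0.442 to 8.97 elsewhere. Values without Bahd1-KO replicate 3 therefore rest on Bahd1-KO replicates 1 and 2, of which the latter had the lung and placenta counts just given. The part of these markers in the results was not tested. All members are therefore described with and without this embryo.

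Rn7sk, Rny1 and Rny3 were each higher in all 3 Bahd1-KO brains than in any of the 3 Bahd1-WT brains. In Bahd1-KO replicates 1 and 2 the levels were between 1.95 and 5.05 times the Bahd1-WT mean, and in Bahd1-KO replicate 3 they were between 208 and 593 times that mean. Such a separation, with all knockouts above all wild types, held for 3 of the 6 members and for 4.47% of the 24739 genes tested (1106 genes). With Bahd1-KO replicate 3 left out it again held for these 3, beside 6.73% of all genes. Because the members were picked for this contrast, nothing is read from the counts. In whole-tissue RNA, fewer cells of a kind and less RNA per cell cannot be told apart.

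Rn7sk was the most abundant member. Its read counts were 1498, 1322 and 188131 in Bahd1-KO replicates 1 to 3, and 702, 662 and 934 in Bahd1-WT replicates 1 to 3. As TMM-scaled CPM these were 22.9, 15.7 and 3487 in the knockouts and 7.33, 7.51 and 9.25 in the wild types. The wild types lay close together (8.03 ± 1.06, SD, n = 3), the first and second knockouts lay moderately above all of them, and Bahd1-KO replicate 3 was far above every other library. In that embryo Rn7sk took 0.238% of all counts (95% Wilson interval 0.237 to 0.239%, counting error only), against 0.000765 to 0.00243% in the others. The fitted difference, Bahd1-KO minus Bahd1-WT, was 7.19 on the log2 scale (SE 2.20), and 1.24 (SE 0.259) without Bahd1-KO replicate 3. It ranked 87th of 24739 genes from the most positive difference, and 472nd of 23334 without that embryo.

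Rny1 encodes the Y1 RNA. Its counts were 97, 113 and 9385 in the knockouts and 33, 21 and 30 in the wild types, equal to 1.48, 1.34 and 174 CPM against 0.345, 0.238 and 0.297 CPM. The first and second knockouts were nearly equal to each other and at 5.05 and 4.56 times the Bahd1-WT mean (0.293 ± 0.0534, SD, n = 3), a larger multiple than that of Rn7sk in the same embryos (2.85 and 1.95). Its log2 difference was 7.64 (SE 2.14) with all embryos and 2.24 (SE 0.310) without Bahd1-KO replicate 3, for ranks of 59 and 104.

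Rny3 encodes the Y3 RNA, and lies about 6 kb from Rny1 on the opposite strand. Its counts were 85, 98 and 4155 in the knockouts and 61, 20 and 25 in the wild types. These correspond to 1.30, 1.16 and 77.0 CPM against 0.637, 0.227 and 0.248 CPM. Bahd1-WT replicate 1 was the highest wild type and the closest of them to the knockouts, which made the wild types of Rny3 (0.371 ± 0.231, SD, n = 3) more spread in proportion than those of Rn7sk or Rny1. The log2 difference was 6.15 (SE 1.84) with all embryos and 1.71 (SE 0.473) without Bahd1-KO replicate 3, at ranks 190 and 226. Around Rny3 in the first ranking, Rpph1 stood at rank 206.5, by a fitted value that rests on 17 counts in a single library.

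**Figure D1:**
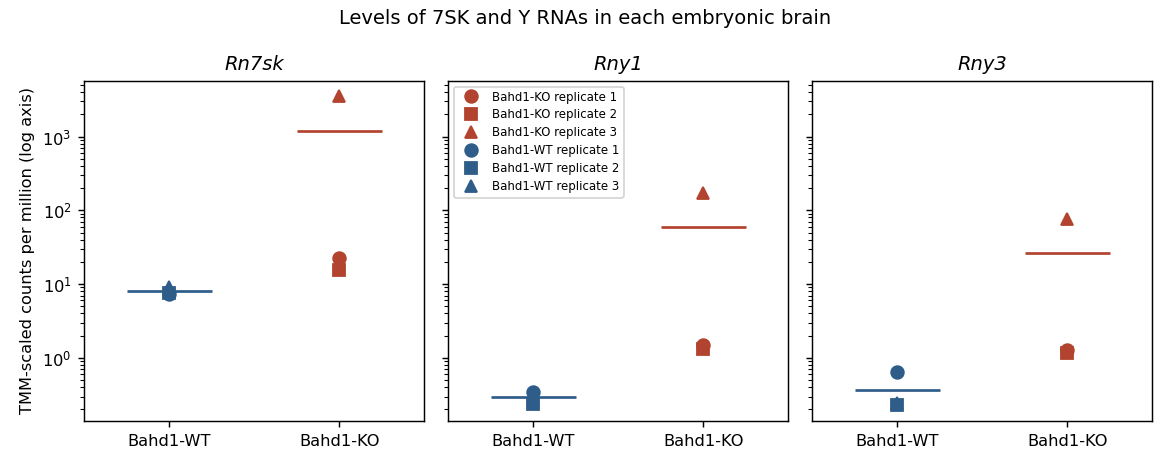
TMM-scaled CPM (log axis) of Rn7sk, Rny1 and Rny3 in each of 3 Bahd1-WT (blue) and 3 Bahd1-KO (red) brains, with a horizontal line at each group mean. For all 3 genes the Bahd1-KO points lie above the Bahd1-WT points, and the Bahd1-KO mean is set by replicate 3, where Rn7sk reached 3487 against 22.9 and 15.7 in the other knockouts.

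To compare the members with each other, levels were divided by exon length. In the wild types Rn7sk reached 24.3 ± 3.20 CPM per kb (SD, n = 3), Rny3 3.63 ± 2.27 and Rny1 2.62 ± 0.476. Rn7sk was thus above both Y RNAs in each wild type, whereas the Y RNAs did not differ beyond their spread. In the knockouts Rn7sk had 69.1, 47.3 and 10535 CPM per kb, Rny1 13.2, 11.9 and 1553, and Rny3 12.7, 11.4 and 755. The order Rn7sk, Rny1, Rny3 held in all 3 knockouts, although the Y RNAs were nearly equal in the first and second. Among all genes tested, Rn7sk ranked 1504th to 1910th per kb in the wild types, 336th and 665th in Bahd1-KO replicates 1 and 2 and 7th in Bahd1-KO replicate 3. There Rny1 ranked 12th and Rny3 17th.

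Ratios within an embryo do not depend on the scaling of its library. There was 1 count of Rny1 for 15.4, 11.7 and 20.05 counts of Rn7sk in the knockouts and for 21.3, 31.5 and 31.1 in the wild types. All 3 knockouts were below all 3 wild types in this ratio, but Bahd1-KO replicates 1 and 3 were within the counting interval of the lowest wild type (15.03 to 30.1, 95% Wilson). The ratio of Rn7sk to Rny3 was 17.6, 13.5 and 45.3 in the knockouts and 11.5, 33.1 and 37.4 in the wild types, and the groups overlapped. The ratio of Rny1 to Rny3 was 1.14 and 1.15 in Bahd1-KO replicates 1 and 2, against 0.541, 1.05 and 1.2 in the wild types. It was 2.26 (95% interval 2.18 to 2.34) in Bahd1-KO replicate 3, where the interval lay above those of all other embryos. The members therefore did not keep a fixed proportion to each other, and Rny3 had the smallest multiple of its Bahd1-WT mean (208) in the library where all were highest.

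**Figure D2:**
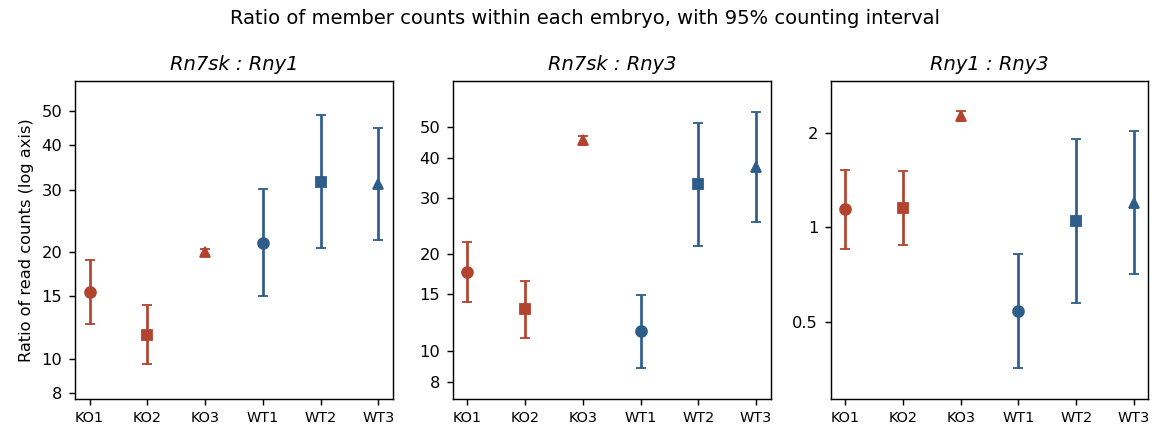
Ratio of read counts between pairs of members within each embryo (log axis), with 95% Wilson intervals that cover counting error only; red marks Bahd1-KO and blue Bahd1-WT. The ratio of Rny1 to Rny3 is 2.26 in Bahd1-KO replicate 3 (KO3) and 0.541 to 1.2 in the other 5 embryos.

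Rn7sk has 12 other genes in the annotation that match it at 90% identity or more over at least 50 bases. Copies of this kind make counts by position uncertain, because a read in a shared stretch has several possible origins. Gm24447 carries bases 1 to 241 of Rn7sk without a mismatch, and had 0 counts. Gm26315, identical at 99.6% over 238 bases, had 0, 0 and 8 counts in the knockouts and 0, 1 and 1 in the wild types, and Gm24146, at 97.5%, had 12 counts in Bahd1-KO replicate 3 and 0 elsewhere. Together the 12 copies had 2, 1 and 22 counts in the knockouts and 0, 3 and 4 in the wild types, and 7 of them were at 0 in every embryo. The counts of Rn7sk exceeded those of its copies by far in every library. Rny1 has 2 such copies, both at 0, and Rny3 and Terc have none.

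The genes beside the members had other profiles. Ick, a protein kinase gene 3195 bases from Rn7sk, had 10520, 12194 and 2384 counts in the knockouts and 16748, 14521 and 14426 in the wild types. On the CPM scale it was lowest in Bahd1-KO replicate 3, the embryo where Rn7sk was highest (log2 difference −0.47, SE 0.460, adjusted p = 0.736 by the quasi-likelihood test of edgeR). The long noncoding RNA gene C920006O11Rik begins 280 bases away on the opposite strand and had 284, 239 and 140 counts against 302, 279 and 311 (log2 difference 0.05, SE 0.360). Beside the Y RNA genes, the pseudogene Rpl31-ps7 had at most 1 count in any embryo, and Pdia4, which encodes a chaperone of the endoplasmic reticulum 7960 bases from Rny1, differed by 0.01 (SE 0.283), with 136 CPM in Bahd1-KO replicate 3 and 75.8 to 114 CPM elsewhere. Gm25283, on the far side of Rny3, was at 0.

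Around the other members, Parp2, a DNA repair gene 73 bases from Rpph1, had 2392, 2518 and 1881 counts in the knockouts and 2906, 2796 and 3501 in the wild types, and differed by 0.07 on the log2 scale. AC027184.1, on the other side of Rpph1, was at 0. Beside Rmrp, Arhgef39 differed by 0.03 and Ccdc107, which overlaps 124 bases of Rmrp on the opposite strand, by −0.30. Sit1 had at most 2 counts in any embryo. Beside Terc, Gm21960 had 21, 15 and 5 counts in the knockouts and 15, 24 and 13 in the wild types, and Gm24136 was at 0. Rpl31-ps7, Gm25283, AC027184.1, Sit1 and Gm24136 had too few counts to be tested. None of the adjacent genes that were tested passed the adjusted threshold of 0.05, which 0.00404% of all 24739 genes passed.

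Genes of like profile were sought for Rn7sk and Rny1 among 19660 genes with at least 50 counts, by the root mean square (RMS) difference between log2 levels centred on their mean over the 6 embryos. The most alike to Rn7sk was Rny1 (RMS 0.387), followed by Gm42418 (0.464), which holds ribosomal RNA sequence, the mitochondrial ribosomal RNA genes mt-Rnr1 (0.501) and mt-Rnr2 (0.514), and Cxcl15 (0.514), a chemokine gene expressed in lung. For Rny1 the order was Gm42418 (0.354), Rn7sk (0.387), mt-Rnr2 (0.408), mt-Rnr1 (0.423) and Clic5 (0.476), an intracellular chloride channel gene. Rny3 stood 27th for Rn7sk (0.844) and 6th for Rny1 (0.481). Cxcl15 had 2, 33 and 10251 counts in the knockouts and 0, 1 and 1 in the wild types, and Clic5 had 159, 204 and 13459 against 200, 161 and 95. These profiles share the peak in Bahd1-KO replicate 3, and across 6 libraries that peak dominates the measure.

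With that embryo left out, a choice made after the data were seen, other genes came first. Among the 5 most alike to Rn7sk over the remaining embryos were Gm3555 (RMS 0.122), Rny1, Rsad2 (0.196) and Nlrp5-ps (0.197), and among those of Rny1 were Gm14089 (0.0738), Rsad2 (0.125), Gm3555 (0.154) and Rn7sk. Rn7sk and Rny1 were thus among the 5 most alike genes of each other with and without Bahd1-KO replicate 3. Both had been picked for being higher in the knockouts, which by itself makes their profiles alike. Nothing is therefore read from this likeness. Rsad2, an interferon-induced antiviral gene, had 97, 110 and 337 counts in the knockouts against 42, 37 and 40 in the wild types.

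**Figure D3:**
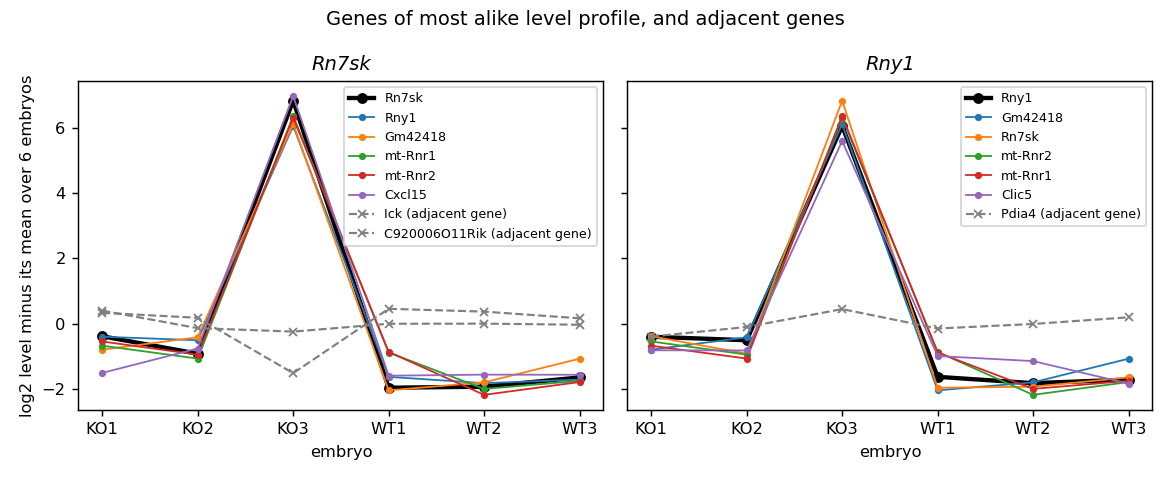
Log2 level of each gene minus its own mean over the 6 embryos, for Rn7sk and Rny1 (black), the 5 genes most alike to each (coloured) and the adjacent genes (dashed grey). The coloured profiles follow the peak in Bahd1-KO replicate 3 (KO3), whereas the dashed profiles of Ick, C920006O11Rik and Pdia4 show no such peak, and Ick is lowest there (44.2 CPM against 143 to 175 in the other 5).

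Other RNAs, most of them without the long poly(A) tail of messenger RNAs, were examined by class. They came from 203 genes named by symbol, of which 74 had 10 counts or more. Whether the counted transcripts of each gene carried a tail was not tested. Bahd1-KO replicate 3 was the highest of the 6 embryos for 44 of the 74, beside 38.1% of all genes tested. All 3 knockouts were above all wild types for 10 of the 74 (4.47% of all genes tested), and Bahd1-KO replicates 1 and 2 were above all wild types for 12 (6.73% of all genes tested). How far Bahd1-KO replicate 3 lay above the wild types differed widely between classes.

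Ribosomal RNA was at 1.77, 1.84 and 216 times the Bahd1-WT mean in Bahd1-KO replicates 1 to 3. Gm42418 had 179529, 300971 and 17821435 counts in the knockouts and 110535, 120626 and 228472 in the wild types. The mitochondrial gene mt-Rnr2 had 97460, 95061 and 9335352 counts against 114114, 42177 and 63451. On the CPM scale mt-Rnr2 was above all wild types (1192, 478 and 628) in Bahd1-KO replicates 1 (1488) and 3 (173032), and below the highest of them in replicate 2 (1126). Summed spliceosomal and U3 RNA genes were at 2.20, 2.17 and 86.7 times the Bahd1-WT mean, with 15 of 21 genes at 0 throughout. One of the summed genes, Rnu73b, is annotated as a small nucleolar RNA and had 16, 16 and 6 counts in the knockouts and 10, 14 and 12 in the wild types. Without it, a choice made after the data were seen, the ratios were 2.88, 3.80 and 293, on a base of 15 counts over the 3 wild types. Rnu11, the U11 RNA of the minor spliceosome, had 6, 13 and 580 counts against 4, 4 and 2, and Rnu12, its U12 partner, had 4, 3 and 255 counts against 0 in each wild type. Cajal body RNAs, which guide modification of spliceosomal RNAs, were at 1.91, 1.48 and 46.4 times, led by Scarna2 with 12, 18 and 471 counts against 2, 7 and 11, and by Scarna13 with 2, 6 and 159 counts against 4, 5 and 12.

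Small nucleolar RNAs showed much smaller ratios. The H/ACA class was at 1.33, 1.03 and 4.01 times the Bahd1-WT mean and the C/D class at 1.12, 0.936 and 3.06 times. Within these classes the genes were uneven: Snora73b had 8, 20 and 143 counts in the knockouts and 4, 15 and 28 in the wild types. Snora31 had 47, 46 and 26 counts against 44, 46 and 56. On the CPM scale Snora31 was at 0.941 times the Bahd1-WT mean in Bahd1-KO replicate 3. Snord17 had 12, 6 and 353 counts against 7, 8 and 7, and Snord104 had 31, 132 and 109 against 93, 83 and 214. Mitochondrial tRNAs were at 1.56, 1.61 and 1.90 times the mean of wild types that themselves ranged from 0.614 to 1.52 times. The main gene of this class, mt-Ti, had 598, 751 and 285 counts in the knockouts and 769, 299 and 493 in the wild types. On the CPM scale mt-Ti was at 0.972 times the Bahd1-WT mean in Bahd1-KO replicate 3. For mt-Tm the counts were 34, 47 and 243 against 81, 23 and 14.

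Vaultrc5, another RNA polymerase III product and part of vault particles, had 1, 7 and 51 counts in the knockouts and 1, 0 and 2 in the wild types. The signal recognition particle genes Rn7s1, Rn7s2 and Rn7s6 were at 0 in every embryo. Malat1 and Neat1, nuclear RNAs with long forms whose ends are cut by RNase P, were together at 1.43, 0.959 and 16.0 times the Bahd1-WT mean. Malat1 had 20948, 17958 and 192381 counts against 23618, 20285 and 19328, and Neat1 224, 316 and 2860 against 377, 234 and 249. After the data were seen, the small RNAs among the classes were also divided by annotated length. The 52 genes under 200 bases were together at 4.43 times the Bahd1-WT mean in Bahd1-KO replicate 3, which was the highest embryo for 25 of them. The 6 genes of 200 bases or more were at 48.0 times, with this embryo highest for 5. Both sums rest largely on few genes. The largest in this embryo were Rnu11 (10.8 CPM) and Rnu12 (4.73 CPM) among the shorter genes. Among the longer ones they were Scarna2 (8.73 CPM) and Snord17 (6.54 CPM). Whether length bears on these levels was not tested. Rny1 and Rny3, at 593 and 208 times, were shorter than 200 bases.

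**Figure D4:**
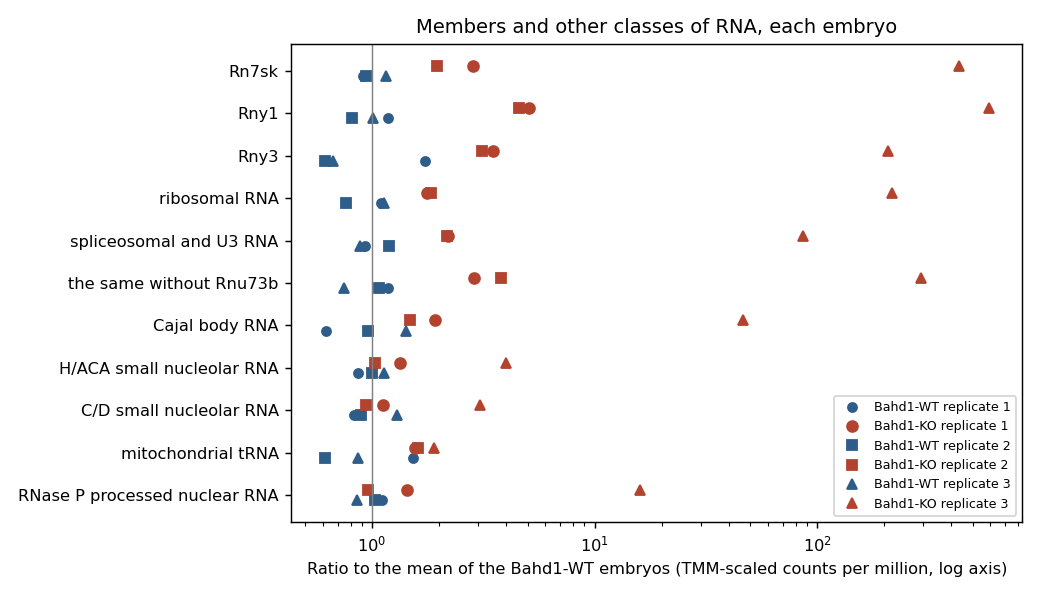
Level of Rn7sk, Rny1, Rny3 and the summed level of each class of other RNAs in each embryo, as a ratio to the mean of the Bahd1-WT embryos (log axis, from TMM-scaled CPM). Bahd1-KO replicate 3 (red triangles) reaches 593 for Rny1, 216 for ribosomal RNA, 86.7 for spliceosomal and U3 RNA with Rnu73b and 293 without it, and 3.06 for C/D small nucleolar RNA.

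The proteins that make, bind or trim these RNAs were listed by their role, although with earlier results of these data known. Their genes were tested in the model over all genes. The lists held 81 genes of the table, and all 81 had enough counts. None passed the adjusted threshold (adjusted p 0.696 to 0.999, quasi-likelihood test of edgeR with Benjamini-Hochberg adjustment over 24739 genes), none had an unadjusted p under 0.05, and DESeq2 likewise called 0. In the same edgeR test, 1156 of the 24739 genes had an unadjusted p under 0.05. Of all genes tested, 0.00404% were called, which was Bahd1 alone (log2 difference −8.40, SE 0.606, adjusted p = 0.0462). Of the 81 genes, 31 were fitted higher and 50 lower in the knockouts, with a median log2 difference of −0.16 beside 0.06 over all genes. Without Bahd1-KO replicate 3 the medians were −0.03 and −0.01. Scaling by total counts moved the median of all genes to −0.11, that of the 81 genes to −0.28 and the split to 10 higher and 71 lower. With upper-quartile factors these medians were 0.17 and −0.06, and the split was 39 higher and 42 lower.

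In the 7SK particle list of 9 genes, 4 were fitted higher and 5 lower (median −0.03). Cdk9, the kinase subunit of P-TEFb, was at 24.1 ± 8.70 CPM in Bahd1-KO and 35.3 ± 10.01 CPM in Bahd1-WT (log2 difference −0.55, SE 0.361), and Hexim2, an inhibitor of P-TEFb within the particle, differed by −0.65 (SE 0.459). Larp7, the 7SK-binding protein that protects its 3′ end, and Mepce, which caps its 5′ end, were looked at for their role and after the fit. Larp7 had 40.2, 36.7 and 55.4 CPM in the knockouts and 34.8, 29.7 and 39.6 in the wild types, and Mepce had 14.8, 30.2 and 15.9 against 19.3, 30.6 and 38.2. Both overlapped between genotypes. Hexim1 differed by 0.01 (SE 0.252).

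Of 6 Y RNA binding genes 4 were fitted higher and 2 lower (median 0.05). Puf60, a splicing factor that binds Y RNAs, had the largest difference (−0.77, SE 0.420) and Ssb, the La protein that holds the terminal U run of new RNA polymerase III transcripts, the next (0.33, SE 0.257). Trove2, which encodes Ro60, had 226, 148 and 116 CPM in the knockouts and 199, 132 and 140 in the wild types, again overlapping, and was looked at for its role. Among 11 genes of RNase MRP and RNase P, 4 were higher and 7 lower (median −0.18), with Pop7 (−0.91, SE 0.785) and Rpp25l (−0.87, SE 0.752), a protein subunit and a relative of one, furthest from 0. Both were lower in Bahd1-KO replicates 1 and 3 than in any other embryo, while Bahd1-KO replicate 2 lay within the wild types. Among 9 telomerase genes, 4 were higher and 5 lower (median −0.17). Wrap53, which brings Terc to Cajal bodies, differed by −0.69 (SE 0.469) and Nhp2, a protein of H/ACA particles, by −0.56 (SE 0.424).

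RNA polymerase III itself had 3 of 14 subunit and regulator genes fitted higher and 11 lower (median −0.21). Polr3g, a subunit of the form of the enzyme found in undifferentiated cells, differed by 0.69 (SE 0.377) with 7.20, 6.09 and 10.8 CPM in the knockouts and 6.57, 4.16 and 4.18 in the wild types. Maf1, the repressor of the enzyme, differed by −0.59 (SE 0.407). Of 18 promoter factors 7 were higher and 11 lower (median −0.11), among them Snapc2 (−0.84, SE 0.536), a subunit of the complex that binds the promoters of small nuclear RNA genes, and Gtf3c1 (−0.60, SE 0.308), a subunit of TFIIIC. Of 14 genes for the handling of small RNA 3′ ends 5 were higher and 9 lower (median −0.17), the largest differences being those of Lsm4 (−0.84, SE 0.657) and Lsm7 (−0.66, SE 0.502), which belong to the ring that binds the U-rich end of U6 RNA. The p-values set the difference between genotypes against the spread between these 3 embryos of each genotype. That spread includes Bahd1-KO replicate 3.

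**Figure D5:**
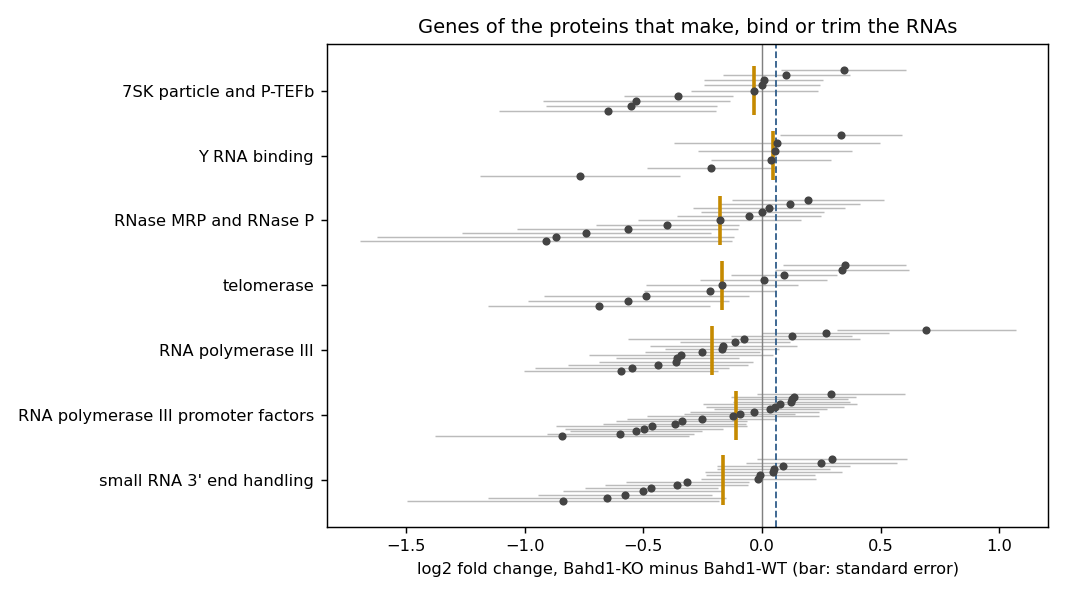
Fitted log2 difference between Bahd1-KO and Bahd1-WT (points, with the standard error as bar) of the 81 genes for proteins that make, bind or trim the RNAs, by list; the orange lines mark the list medians and the dashed line the median of all genes tested, 0.06. The points lie between −0.91 and 0.69, and none passed the adjusted threshold.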

How the data were processed

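Polyadenylated RNA was measured in 6 whole brains, grouped by the sample titles. The authors deposited raw read counts per gene, without normalization, with technical runs pooled into 1 column per embryo. Per the methods and the processing notes of the submitters, stranded single-end reads were trimmed with cutadapt (1.11), aligned to GRCm38 (STAR 2.5.0a is named, as is TopHat2) and counted over Ensembl exons with featureCounts (1.4.6-p3) in strand-specific mode. The stated strand setting expects reads in the sense of the gene, whereas kits of this kind usually give the opposite sense, and the orientation used was not tested here. Counts of genes with a partner on the opposite strand, such as Rmrp and Ccdc107, are uncertain for this reason too. Counting by position leaves reads of overlapping genes and of near-identical copies uncertain. All rows of the table had a gene symbol.

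Genes with at least 10 summed counts were tested with the two-sided quasi-likelihood test of edgeR (4.0.16, R 4.3.3) with genotype in the model and library factors by the trimmed mean of M-values (TMM) method. p-values were adjusted by Benjamini-Hochberg over all 24739 genes, with a threshold of 0.05. Each standard error (SE) is the absolute fitted log2 difference divided by the square root of the F statistic of the quasi-likelihood test. For the members the SE is descriptive, and no test is read from it. DESeq2 (1.42.0), limma voom (3.58.1), other scalings and filters, a replicate block and leaving out each embryo were alternatives. The fit was checked on simulated counts, drawn with the same dispersion for every gene and without an outlying library. That check does not show the power of the test in these embryos. Positions, lengths and sequences came from GENCODE M21 (GRCm38), which matched 53620 genes (99.66%), copies from BLAST (2.17.0). Per-length levels are TMM-scaled CPM per kb of exon. Intervals of ratios and shares are 95% Wilson intervals and cover counting error only.

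The members, the partner lists and the class lists were chosen with earlier results of these data known, so members have no test. Named were the members, adjacent genes, the 5 most alike genes (at least 50 summed counts, levels plus 0.5 CPM), from each partner list the called genes and the 2 of largest absolute difference (mean of at least 1 CPM), and from each class the 2 of largest count. Genes named for their role or value beyond this are said to be so in the text. Some genes that these rules name are not reported here. Promoter sequences of the members were not analysed here.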

Additional observations from a re-analysis of the deposited data

How the results depend on the processing

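In 99 recomputations of 9 results none reversed, but several changed in size. The count of called genes moved in 11 settings, and the differences of Rn7sk, Rny1 and Rny3 moved in 5 settings each. Because the members were picked for this contrast, nothing is read from its unchanged direction in them. The fitted log2 difference of Rn7sk ranged from 1.24 to 7.77, that of Rny1 from 2.24 to 8.22 and that of Rny3 from 1.61 to 6.75 over 18 settings, the low ends being those without Bahd1-KO replicate 3 (1.24, 2.24 and 1.71) or with a block besides (1.33, 2.26 and 1.61). With voom and embryo quality weights, the differences were 1.67, 2.75 and 2.502. The 3 members separated the genotypes under every scaling and without Bahd1-KO replicate 3, and their levels per kb in Bahd1-WT moved by less than their spread. The count of called genes, 1 as reported, stayed 1 under the other filters and scalings and with ribosomal RNA genes left out. It was 8 with DESeq2, 6 with voom, 11 with DESeq2 without Bahd1-KO replicate 3, and 0 to 4 when each embryo was left out, with 4 without Bahd1-KO replicate 3. The cause of these shifts was not tested. The count of called partner genes was 0 in all 17 alternatives, with 0 to 12 at an unadjusted p under 0.05. Among all genes, 154 to 4878 had an unadjusted p under 0.05 in these alternatives. Both the 12 and the 4878 were found without Bahd1-KO replicate 2.

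Deviations of embryos of the same replicate number had correlations of 0.256, 0.337 and −0.123. Those of different numbers ranged from −0.504 to 0.375, so the numbers were not taken to pair the samples. The replicate block left 0 genes past the adjusted threshold (517 had an unadjusted p below 0.05), and 16 with the block and without Bahd1-KO replicate 3. Under the block the differences were 2.89 for Rn7sk, 3.98 for Rny1 and 3.33 for Rny3. The libraries cannot resolve Rmrp, Rpph1 and Terc, which had at most 17 counts in any embryo.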
